A study of Homo sapiens with 6 samples.

Results

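The 233 genes described here are the well-expressed long non-coding RNAs (lncRNAs) of OE-19 cells, a cell line of adenocarcinoma of the esophagogastric junction (AEG). They were selected on measured values: a gene was kept if the deposited table types it as a lncRNA and if its level, averaged over all 6 libraries, was at least 10 CPM (a gene's count divided by all counts of its library, times 1000000). These are 233 of 16799 lncRNAs and of 60480 gene identifiers in the table. The level of a member is therefore given as a description only. The difference between groups was not used directly, but a gene near 10 CPM can be a member through the group in which it is higher. The libraries come from OE-19 cells of 2 groups. There were 3 libraries of control cells and 3 of cells in which IGF2BP3 was knocked down by shRNA (IGF2BP3 KD). The titles of the control libraries name a control shRNA, while their descriptions and count columns read Puro. Both groups were grown in the same medium with serum. OE-19 is one established line, and the sources used here do not say whether the 3 libraries of a group came from separate cultures or which shRNA each IGF2BP3 KD library carries, so p-values measure only the spread between these libraries, which may be technical.

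A lncRNA is a transcript that is long and codes for no known protein. Some stay in the nucleus and build nuclear bodies or act on chromatin, some are exported and bind proteins or other RNAs in the cytoplasm, and others are mainly known as the carriers of small nucleolar RNAs (snoRNAs) or microRNAs in their introns. IGF2BP3 is an RNA-binding protein that reads the methylation of adenosine at N6 (m6A) and is known to stabilize transcripts that carry it, so a knockdown asks which RNAs change in level when this reader is reduced.

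The knockdown was visible in every library. *IGF2BP3* (ENSG00000136231) was at 108, 106 and 112 CPM in control replicates 1 to 3 and at 14.4, 12.8 and 12.6 CPM in IGF2BP3 KD replicates 1 to 3. Here and in what follows, CPM of single libraries are scaled by the TMM method of edgeR, and n is 3 libraries per group for every mean and SD. The log2 fold change of IGF2BP3 KD over control cells (log2FC) was -3.03 for *IGF2BP3* (standard error, SE, 0.06, adjusted p = 3.1e-10). Adjusted p-values come from the quasi-likelihood test of edgeR and were adjusted by the Benjamini-Hochberg method over 19778 tested genes, and a gene is called lower or higher where the adjusted p is under 0.05. Total counts ranged from 53424071 to 69989087 per library. The epithelial markers *EPCAM*, *CDH1*, *KRT8*, *KRT18*, *KRT19* and *ERBB2* were all well expressed, with *ERBB2* at a mean of 13070 CPM in control cells. The squamous, leukocyte and endothelial markers all had means below 1 CPM in both groups. Of the 4 fibroblast markers, *COL1A2* and *LUM* had no count in any library and *DCN* had means below 1 CPM, while *COL1A1* was at 21.7 ± 1.65 CPM (SD) in control cells and 30.8 ± 2.32 CPM (SD) in IGF2BP3 KD cells (log2FC 0.50, adjusted p = 0.00078). Its part in the results on lncRNAs was not tested.

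More of these lncRNAs rose than fell. All 233 passed the filter on low counts, and 45 were called higher and 18 lower in IGF2BP3 KD cells, which is 19.3% and 7.73% of the members. Among all tested genes, 9.87% were called higher and 10.6% lower. Among the 9512 tested protein-coding genes with a level of at least 10 CPM, 16.6% were called higher and 19.7% lower. The share of members called higher was thus near that of coding genes of the same minimum level, and the share called lower was below it, with no test of that difference made. The median log2FC of the members was 0.07 (quartiles -0.08 and 0.21), against 0.01 for all tested genes and -0.01 for the coding genes. The 3511 tested lncRNAs below 10 CPM had a median of 0.06, with 66 called higher and 41 lower. The count of 45 higher members depended on single libraries. It was 26 without control replicate 3, 28 without IGF2BP3 KD replicate 1 and 29 without IGF2BP3 KD replicate 2. Of the 63 called members, 31 were called the same way with every library left out in turn.

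The 6 values of a gene can also be read without a model. In 78 members all 3 IGF2BP3 KD values lay above all 3 control values, and in 39 they lay below. Among all tested genes the groups were separate in this way in 18% for higher and 17.8% for lower, and among the coding genes of at least 10 CPM in 24.6% for higher and 28.3% for lower. In all 63 called members the groups did not overlap.

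**Figure D1:**
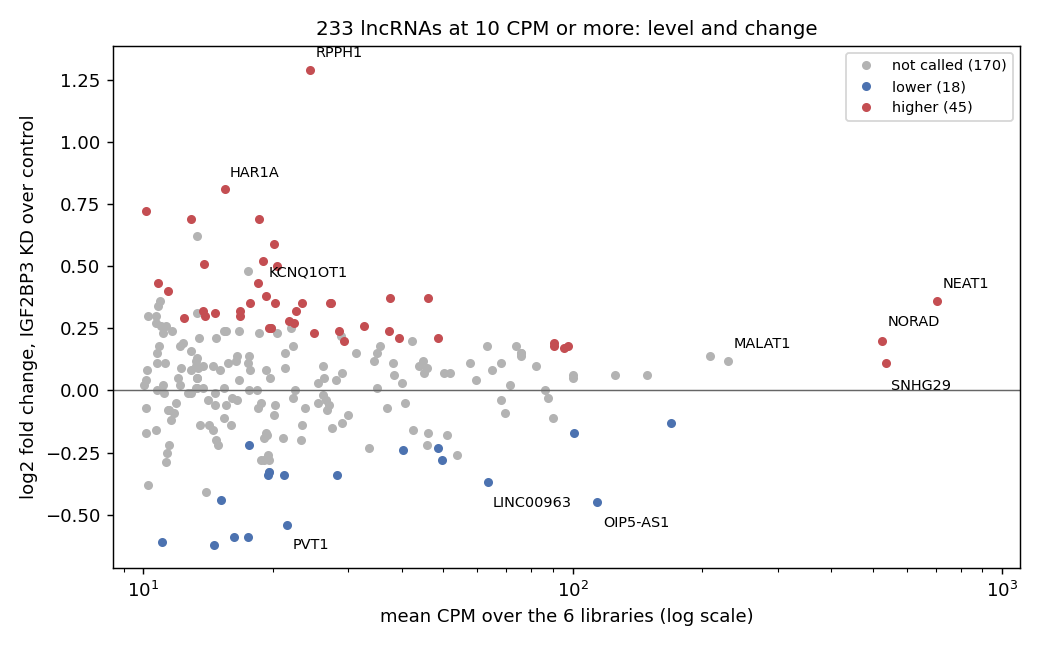
Each point is 1 of the 233 lncRNAs. The horizontal axis is the mean level in CPM over the 6 libraries on a log scale and the vertical axis is the log2FC, IGF2BP3 KD over control, with the 45 called higher in red, the 18 called lower in blue and the 170 not called in grey. *RPPH1* lies highest at 1.29, and *NEAT1*, *SNHG29* and *NORAD* lie furthest right.

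The split by level was as follows. Of the 12 members at 100 CPM or more, 3 were higher and 3 lower (25% each), against 21% higher and 30.7% lower of 2220 coding genes at that level. Of the 96 members from 20 to 100 CPM, 23 were higher and 7 lower, while coding genes in that range had 892 higher and 1024 lower of 5574. Of the 125 members under 20 CPM, 19 were higher and 8 lower, against 216 and 171 of 1718 coding genes from 10 to 20 CPM. With each of the 6 libraries left out in turn, the 23 were 12 to 20, lowest without control replicate 3, and the 19 were 10 to 14, lowest without IGF2BP3 KD replicate 1 or 2, and the 3 lower members at 100 CPM or more were 1 without control replicate 2. The members just inside the limit were *RP11-265D17.2*, *LINC00467* and *SNHG10*, at 10.13, 10.12 and 10.05 CPM. The lncRNAs just outside it were *PSMG3-AS1* and *NUP50-DT*, at 9.927 and 9.816 CPM, and one known by a clone name, at 9.76 CPM. Some of the largest rises and falls had a mean below 10 CPM in one group and are members through the other. In control and IGF2BP3 KD cells, *CEBPA-DT* had means of 7.67 and 12.6 CPM and *RP4-591C20.9* of 9.23 and 12.4 CPM. *EIF3J-DT* had means of 9.90 and 15.9 CPM and *RP11-4O1.2* of 13.4 and 8.77 CPM. Calls of such members are not independent of the rule.

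As a sum, the 233 lncRNAs took a larger part of the library in IGF2BP3 KD cells. They held 0.871%, 0.8585% and 0.8405% of all counts in control replicates 1 to 3 and 0.9244%, 0.9201% and 0.9112% in IGF2BP3 KD replicates 1 to 3. The groups did not overlap, and the ratio of the means was 1.072. Without *NEAT1* the ratio was 1.055, and without both *NEAT1* and *NORAD* it was 1.048, with the groups separate in each case. In bulk RNA, fewer cells with an RNA and less of it per cell cannot be told apart.

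**Figure D2:**
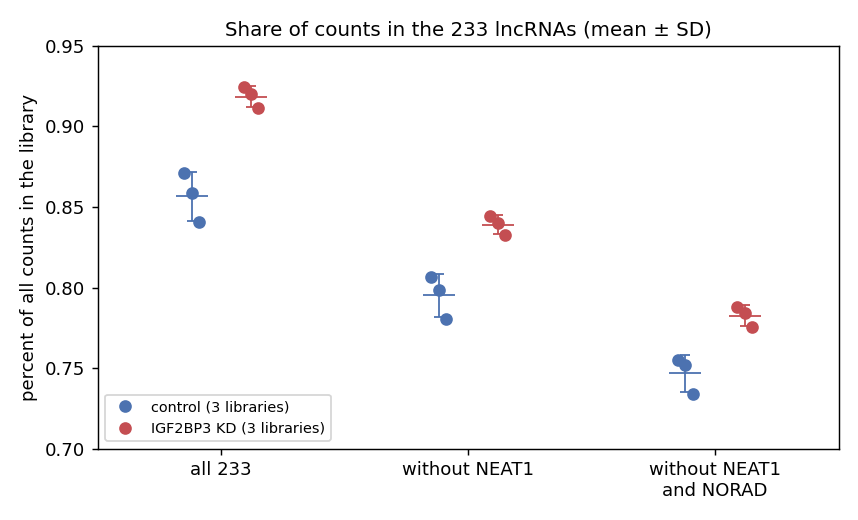
Each point is 1 library, with the mean and SD of the 3 libraries of a group. The vertical axis is the percent of all counts held by the 233 lncRNAs, by the same set without *NEAT1*, and by the set without *NEAT1* and *NORAD*, and it starts at 0.7. The red IGF2BP3 KD points lie above the blue control points in all 3 columns.

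*NEAT1* was the lncRNA with the most counts and it rose. *NEAT1* is the RNA scaffold of paraspeckles, nuclear bodies that hold RNA-binding proteins. Its gene covers bases 65422774 to 65445540 of chromosome 11 in hg38, on the plus strand, and is covered by exons throughout. Its level was 649, 602 and 604 CPM in control replicates 1 to 3 and 792, 797 and 784 CPM in IGF2BP3 KD replicates 1 to 3. All 3 IGF2BP3 KD values were above all control values. The log2FC was 0.36 (SE 0.03, adjusted p = 1.1e-05), which is 1.28-fold. The count is per gene in libraries of polyadenylated RNA, so transcript forms of *NEAT1* were not told apart.

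*MALAT1*, a nuclear RNA of speckles and the neighbour of *NEAT1* on chromosome 11, was not called. It was at 248, 247 and 168 CPM in control replicates and at 246, 237 and 235 CPM in IGF2BP3 KD replicates. Control replicate 3 alone was low, while the other 5 libraries lay close together. The log2FC was 0.12 (SE 0.11, adjusted p = 0.56).

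The other nuclear RNAs of the list moved in both directions. *KCNQ1OT1*, the imprinted antisense RNA of the *KCNQ1* locus, rose from 15.3, 15.4 and 16.02 CPM in control replicates to 22.6, 21.4 and 23.2 CPM in IGF2BP3 KD replicates (log2FC 0.52, SE 0.07, adjusted p = 0.00024). *PVT1*, the lncRNA next to *MYC*, fell from 24.9, 27.1 and 24.9 CPM to 16.97, 18.4 and 17.5 CPM (log2FC -0.54, SE 0.07, adjusted p = 0.00021). The X-linked *FTX* and *JPX* had log2FCs of 0.07 and -0.12 and were not called. The lncRNA entry of *RPPH1*, described next, is on the list of nuclear RNAs only by the name it shares with the RNA of RNase P. With it, 3 of the 7 members of this list were higher and 1 was lower. That is 42.9% and 14.3% of a short list, against 9.87% and 10.6% of all tested genes. Of the 3 lncRNAs listed as responsive to p53 or stress, *NEAT1* rose, *PVT1* fell and *SNHG1* was not called (log2FC -0.18, adjusted p = 0.058).

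The lncRNA entry named *RPPH1* had the largest rise. The name is that of the RNA of RNase P, the ribozyme that trims the 5′ end of tRNA precursors. The lncRNA entry was at 11.1, 16.01 and 15.4 CPM in control replicates and at 33.4, 40.0 and 30.4 CPM in IGF2BP3 KD replicates. Each IGF2BP3 KD value was above every control value. The log2FC was 1.29 (SE 0.14, adjusted p = 5.7e-05), which is 2.44-fold. The counted entry, ENSG00000259001, is annotated as a lncRNA on the minus strand of chromosome 14 from 20343048 to 20343685. It encloses a second entry of the same name, the ribozyme itself, from 20343075 to 20343407, which had at most 1 count in any library and was not tested. The rise is therefore that of the lncRNA entry, and a change of the ribozyme was not measured. The libraries were made from polyadenylated RNA, and RNase P RNA is not known as a polyadenylated transcript. Among other RNAs that are not polyadenylated, looked up after the value of *RPPH1* was seen, *RMRP* had 0 to 24 counts and *TERC* 0 to 12 counts per library. *RN7SK* had 22, 21 and 20 counts in control and 30, 23 and 32 in IGF2BP3 KD replicates, with the groups separate and the log2FC at 0.57 (SE 0.43, adjusted p = 0.42). In CPM without TMM scaling, counts of rRNA genes summed to 1.843 to 2.085 in control and 2.143 to 3.369 in IGF2BP3 KD libraries. On the same scale, those of snoRNA genes summed to 62.24 to 66 and 58.44 to 61.56. Their part in the value of *RPPH1* was not tested.

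The first bases of *RPPH1* face those of *PARP2*, which codes for a DNA repair enzyme. *PARP2* was at 62.8, 56.8 and 59.8 CPM in control replicates and fell to 49.7, 45.1 and 50.5 CPM (log2FC -0.30, SE 0.06, adjusted p = 0.0038). The 207 bases between the start of the ribozyme and the start of *PARP2* are shown because the genes on both sides of it changed in opposite directions. The sequence is from RefSeq (GRCh38.p14), chr14:20343408-20343614, plus strand, toward *PARP2*.
RPPH1-PARP2 interval: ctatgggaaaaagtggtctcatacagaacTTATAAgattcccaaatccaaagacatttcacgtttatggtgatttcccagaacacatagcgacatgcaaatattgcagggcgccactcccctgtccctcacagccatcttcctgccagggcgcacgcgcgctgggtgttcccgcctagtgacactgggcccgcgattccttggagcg
The capitals mark TTATAA, a word that reads alike on both strands and whose near edge lies 30 bases from the start of the ribozyme. It occurs once in the interval, and 3.82% of the 27305 RefSeq promoters hold it in the 207 bases before their start. The same interval is known as the H1 promoter, a part of some shRNA vectors, and the sources used here do not say which promoter drove the shRNAs. The interval lies inside the counted lncRNA entry of *RPPH1*, so that reads from it would count there, and its part in the value of *RPPH1* was not tested.

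*NORAD* was the strongest of the cytoplasmic RNAs and it rose. *NORAD* is known for repeated copies of a short element to which RNA-binding proteins attach. It lies on the minus strand of chromosome 20 from 36045618 to 36051018 and overlaps no other exon. Its level was 524, 468 and 472 CPM in control replicates and 559.7, 554 and 572 CPM in IGF2BP3 KD replicates. The groups did not overlap (log2FC 0.20, SE 0.04, adjusted p = 0.0036).

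The element was searched as TGTANATA on the transcript strand of the GENCODE v44 transcripts. *NORAD* holds 15 copies in 5401 bases. Of 19773 tested genes with a transcript, 4 hold as many, which is 0.0202%. A second member is among them, *HCG11* on chromosome 6, with 16 copies in 5696 bases. In all, 42 of 232 members hold at least 1 copy and 3 hold at least 5. *HCG11* shares 11.6% of its words of 31 bases with *NORAD*, so that the pair is related in sequence. The windows below show copies from each, with the copy at the stated base in capitals. The *NORAD* windows at bases 1500 and 2706 each hold a further copy, which is left in lower case. The first window of each RNA is also alike outside the element, so the 2 counts of copies are not independent.
NORAD, element at base 819: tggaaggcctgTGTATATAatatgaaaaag
NORAD, element at base 1500: ttacttatctgTGTATATAgtgtacataaa
NORAD, element at base 2706: actgtatatatTGTATATAtaacggacaaa
HCG11, element at base 760: cggaaggcctgTGTATATAatatgaaaaag
HCG11, element at base 2455: ataacacttttTGTAAATAgcttttaaaaa
*HCG11* was at 13.7, 12.04 and 11.8 CPM in control replicates and at 15.2, 13.5 and 14.8 CPM in IGF2BP3 KD replicates. Its groups overlapped and it was not called (log2FC 0.21, SE 0.09, adjusted p = 0.13).

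*OIP5-AS1*, a cytoplasmic RNA known to bind microRNAs and the protein HuR, fell. It was at 141, 128 and 128 CPM in control replicates and at 99.2, 99.6 and 91.3 CPM in IGF2BP3 KD replicates. Every IGF2BP3 KD value was below every control value (log2FC -0.45, SE 0.05, adjusted p = 8.9e-05). It shares 759 exonic bases with *OIP5* on the opposite strand, which had a log2FC of -0.26 (adjusted p = 0.078). *UCA1* and *CRNDE*, lncRNAs raised in several carcinomas, had log2FCs of -0.26 (adjusted p = 0.069) and 0.11 (adjusted p = 0.18). Of the 4 members in this list, 1 was thus higher and 1 lower, too few to compare with the 9.87% and 10.6% of all tested genes.

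The remaining members of highest level moved little. *SNHG29*, second after *NEAT1*, rose from 526, 504 and 516 CPM to 559, 558 and 554 CPM (log2FC 0.11, SE 0.02, adjusted p = 0.0073). *LINC00511* fell from 174, 184 and 176 CPM to 162, 163 and 161 CPM (log2FC -0.13, SE 0.03, adjusted p = 0.012), and without control replicate 2 its adjusted p was 0.054. *IGFL2-AS1* had a log2FC of -0.17 (adjusted p = 0.043), a call that was lost when any one of 5 libraries was left out, with an adjusted p of up to 0.15. *MIF-AS1*, *GAS5* and *FGD5-AS1* had log2FCs of 0.14, 0.06 and 0.06 and were not called. *MIF-AS1* shares 687 exonic bases with *MIF*, which lies on the opposite strand.

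Levels between genes can be compared per length of the annotated exons. Among the 10 members of highest level, *MIF-AS1* had 141.8 CPM per kb of all exons of a gene, followed by *NORAD* with 97.18 and *SNHG29* with 59.94, while *NEAT1* with its 22767 exonic bases had 30.96. Outside these 10, the identical *CH507-513H4.4*, *CH507-513H4.6* and *CH507-513H4.3* had 82.19, 82.08 and 82.02 CPM per kb, between *NORAD* and *SNHG29*. The order depends on the transcript model. Per kb of the canonical transcript alone, *SNHG29* had 1210 CPM per kb and *GAS5* 193.7, because their canonical transcripts are far shorter than the sum of their exons.

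**Figure D3:**
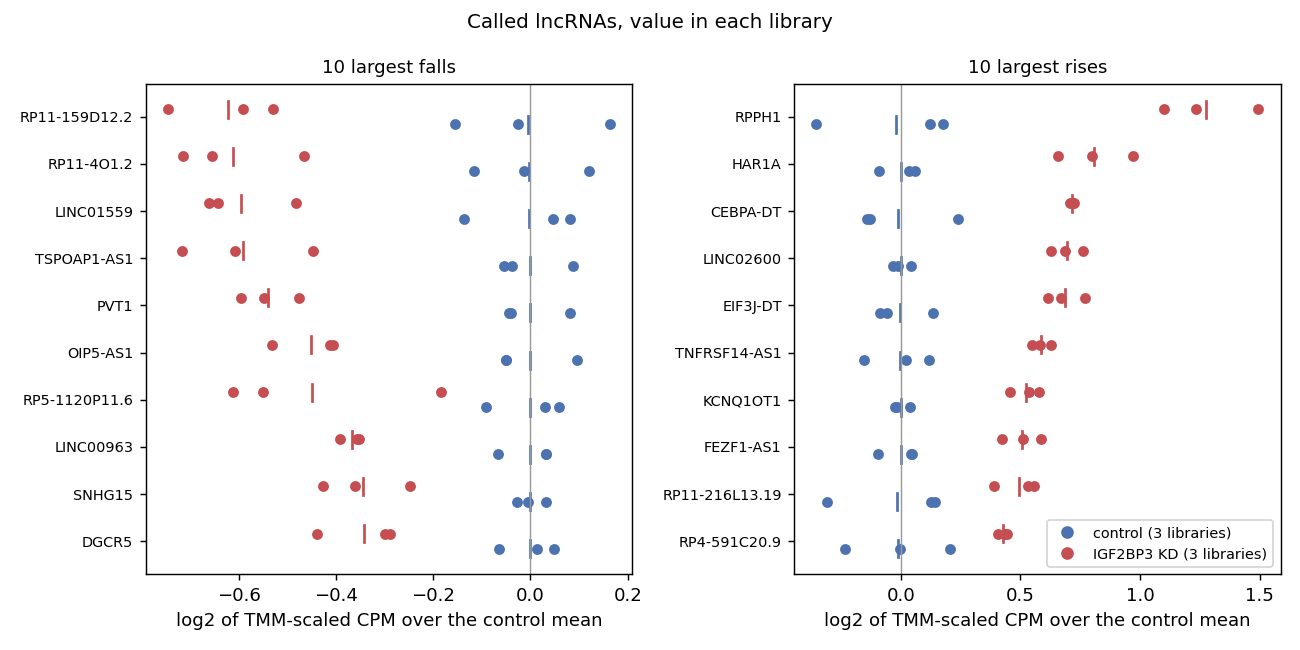
Each row is 1 of the called lncRNAs, the 10 largest falls on the left and the 10 largest rises on the right. The horizontal axis is the log2 of the TMM-scaled CPM of a library over the mean of the 3 control libraries, with control libraries in blue, IGF2BP3 KD libraries in red and a bar at the mean of each group. In all 20 rows the red points lie apart from the blue points.

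The largest falls included *PVT1* and *OIP5-AS1*, given above, and several lncRNAs known by clone or LINC names. *RP11-159D12.2* on chromosome 17, which shares 379 exonic bases with another gene of its strand, fell from 19.8, 15.9 and 17.4 CPM to 10.6, 11.8 and 12.3 CPM (log2FC -0.62, SE 0.10, adjusted p = 0.0011). *RP11-4O1.2* on chromosome 9, which overlaps no other exon, fell from 13.2, 14.5 and 12.3 CPM to 8.49, 9.68 and 8.14 CPM (log2FC -0.61, adjusted p = 0.0016). *LINC01559* on chromosome 12 likewise overlaps no other exon and had a log2FC of -0.59 (adjusted p = 0.00058). In each of these the groups did not overlap. *TSPOAP1-AS1* had a log2FC of -0.59 (adjusted p = 0.00056) and shares 577 exonic bases with *SUPT4H1*, a transcription elongation factor on the opposite strand, which rose (log2FC 0.38, adjusted p = 0.0058). *LINC00963* fell from 73.0, 73.1 and 68.3 CPM to 54.5, 56.0 and 55.8 CPM (log2FC -0.37, SE 0.05, adjusted p = 0.00021). *LINC00963* shares 947 exonic bases with a lncRNA on the opposite strand. Transcripts of other entries hold 61.5% of the sequence words of *LINC00963*, so its value is less certain. *RP5-1120P11.6*, *SNHG15* and *DGCR5* had log2FCs of -0.44, -0.34 and -0.34. The call of *RP5-1120P11.6* was lost with an adjusted p of up to 0.07 when any one of 3 libraries was left out. *DGCR5* shares 862 exonic bases with another entry of the same name on its strand. Of its sequence words, 85.1% occur in transcripts of other entries, so its value is less certain. The remaining 8 falls ranged down to the -0.13 of *LINC00511*.

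The largest rises after *RPPH1* included several RNAs that share a locus with another gene. *HAR1A*, the lncRNA of a region that changed fast in human evolution, rose from 11.7, 11.4 and 10.5 CPM to 17.7, 19.5 and 21.9 CPM (log2FC 0.81, SE 0.09, adjusted p = 0.00011). *HAR1B*, with which it shares 427 exonic bases on the opposite strand, rose as well (log2FC 0.49, SE 0.12, adjusted p = 0.014). *LINC02600* on chromosome 4, which overlaps no other exon, rose from 14.1, 14.6 and 13.9 CPM to 22.0, 22.9 and 24.1 CPM (log2FC 0.69, SE 0.07, adjusted p = 4.1e-05). *TNFRSF14-AS1* had a log2FC of 0.59 and shares 826 exonic bases with the receptor gene *TNFRSF14*, which rose by 0.20 on the log2 scale (adjusted p = 0.041). *FEZF1-AS1* rose by 0.51 on the log2 scale (adjusted p = 0.0013), and *FEZF1* on the opposite strand, at 1.98 CPM in control cells, had a log2FC of 0.50 (adjusted p = 0.092). *RP11-216L13.19* rose by 0.50 and *RP4-591C20.9* by 0.43 on the log2 scale, and *RP4-591C20.9* was no longer called without any one of 5 libraries, with an adjusted p of up to 0.069.

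Many members start close to a coding gene on the opposite strand, in the arrangement called head to head. Such pairs often share a promoter region from which both strands are transcribed. Of the 233 members, 37 had their 5′ end within 1000 bases of the 5′ end of a coding gene in this arrangement. In these 37, edgeR called 13 higher and 0 lower, with 19 above and 2 below at an unadjusted p under 0.05, and DESeq2 called 13 higher and 1 lower. The count of 13 was 8 without control replicate 3, when 1 was lower, and 9 to 11 without any other library. Their median log2FC was 0.19. Of the other 196 members, 32 were higher and 18 lower, with a median of 0.05, and without control replicate 3 the 32 were 18. Without any other single library they were 19 to 24. Of the 37 coding partners, 5 were higher (13.5%) and 9 lower (24.3%), with a median of -0.03. These shares are near the 16.6% and 19.7% of all coding genes of at least 10 CPM. The 5 higher partners were 1 to 4 with 1 library left out, with 1 without IGF2BP3 KD replicate 3. Of the 7 pairs in which both genes were called, 4 changed the same way and 3 in opposite directions. Across the 37 pairs, Pearson's r between the 2 log2FCs was -0.04, given as a description since all pairs come from the same 6 libraries.

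**Figure D4:**
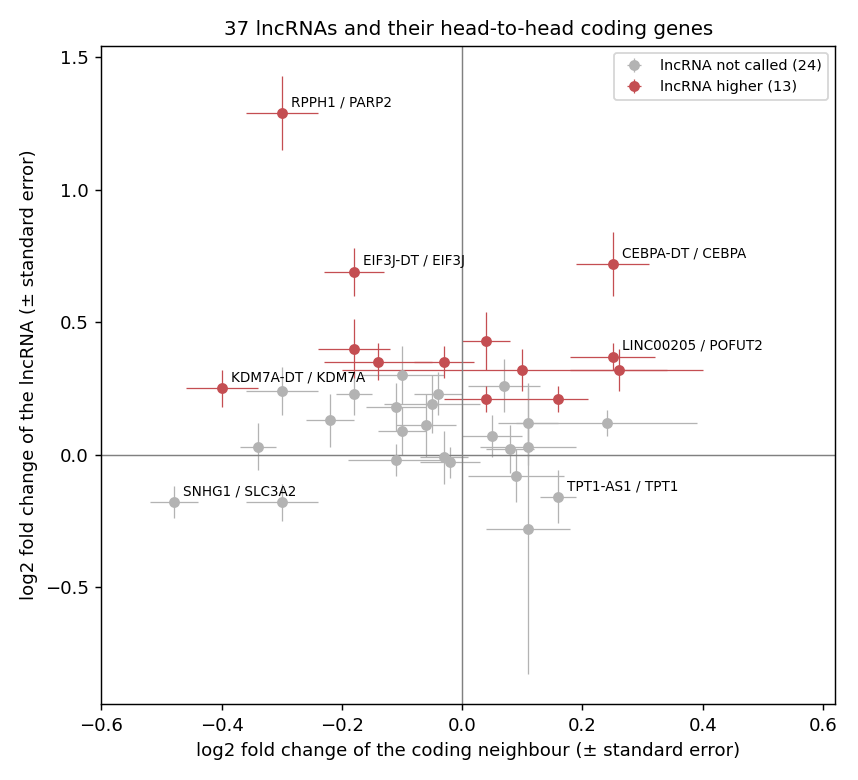
Each point is a lncRNA and the coding gene that starts head to head with it. The horizontal axis is the log2FC of the coding gene and the vertical axis that of the lncRNA, both with standard errors, with called lncRNAs in red. All 13 red points lie above 0 on the vertical axis, on both sides of 0 on the horizontal axis.

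The divergent transcript *EIF3J-DT* rose from 9.31, 10.9 and 9.51 CPM to 15.2, 15.7 and 16.9 CPM (log2FC 0.69, SE 0.09, adjusted p = 0.00032). Its partner *EIF3J*, a subunit of a translation initiation factor, fell from 135, 119.8 and 122 CPM to 114, 111 and 108 CPM (log2FC -0.18, SE 0.05, adjusted p = 0.017). The starts of this pair lie 79 bases apart. The bases between them are shown in capitals with 10 bases on each side, from RefSeq (GRCh38.p14), chr15:44537037-44537134, plus strand, toward *EIF3J*.
EIF3J-DT-EIF3J interval: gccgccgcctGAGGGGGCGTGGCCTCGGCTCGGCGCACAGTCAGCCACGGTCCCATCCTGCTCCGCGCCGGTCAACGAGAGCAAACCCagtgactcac
The interval has 71.8% G and C and 9 CG dinucleotides in 78 bases, against 53.1% and 11 in the 207 bases between the *RPPH1* ribozyme and *PARP2*.

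*KDM7A-DT* and *KDM7A*, a histone demethylase gene, were the third pair called in opposite directions, with log2FCs of 0.25 (adjusted p = 0.02) and -0.40 (adjusted p = 0.00055). The call of *KDM7A-DT* was lost when any one of 4 libraries was left out. *CEBPA-DT* and *CEBPA*, a transcription factor gene, rose together. *CEBPA-DT* was at 7.01, 9.06 and 6.95 CPM in control replicates and at 12.7, 12.6 and 12.5 CPM in IGF2BP3 KD replicates (log2FC 0.72, SE 0.12, adjusted p = 0.0012), while *CEBPA* had a log2FC of 0.25 (SE 0.06, adjusted p = 0.011). The other pairs that rose together were *LINC00205* with *POFUT2*, *RAB30-DT* with *RAB30* and *RP5-1061H20.4* with *RAB4A*. *RAB30-DT* was no longer called without any one of 3 libraries, and *RP5-1061H20.4* without any one of 2. Of the 10 members with a name in -DT, 5 were higher and 0 lower by edgeR, with 7 above and 0 below at an unadjusted p under 0.05 and 5 and 0 by DESeq2, and some of these are among the 37. The 5 were 3 without control replicate 2, control replicate 3 or IGF2BP3 KD replicate 2. Of the 56 members with an antisense name in -AS, 10 were higher and 3 lower, and the 10 were 3 without control replicate 3 and 6 to 8 without any other library. Among all tested genes 9.87% were higher and 10.6% lower.

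The hosts of snoRNAs had small fold changes in both directions. These genes are spliced and their introns are trimmed into snoRNAs, which guide the modification of ribosomal RNA. Of 19 hosts among the members, *SNHG7* and *SNHG29* were higher and *SNHG15* was lower, and 16 were not called by edgeR. That is 10.5% higher and 5.26% lower, against 9.87% and 10.6% of all tested genes. At an unadjusted p under 0.05 there were 5 above and 4 below, and DESeq2 called 4 higher and 3 lower. The groups were separate in 5 hosts for higher and 3 for lower. The log2FCs ranged from -0.34 to 0.23 with a median of 0.07. *SNHG7* was at 84.6, 84.7 and 84.3 CPM in control replicates and at 93.3, 94.9 and 101 CPM in IGF2BP3 KD replicates (log2FC 0.19, SE 0.04, adjusted p = 0.0069). *SNHG15* was at 24.4, 23.8 and 23.4 CPM in control replicates and at 18.6, 20.1 and 17.7 CPM in IGF2BP3 KD replicates (log2FC -0.34, SE 0.07, adjusted p = 0.0044). In both the groups did not overlap. *SNHG18* had the highest log2FC at 0.23 (adjusted p = 0.062) and *SNHG16* was at -0.22 (adjusted p = 0.083). Of the 2 hosts of microRNAs, *MIRLET7A1HG*, which holds members of the let-7 family, was at 9.72, 10.0 and 9.02 CPM in control replicates and at 14.8, 10.9 and 10.6 CPM in IGF2BP3 KD replicates. It was not called (log2FC 0.34, SE 0.13, adjusted p = 0.1), and neither was *MIR600HG* (log2FC -0.20, adjusted p = 0.059). DESeq2 called 0 of these 2, and at an unadjusted p under 0.05 there was 1 above and 1 below.

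**Figure D5:**
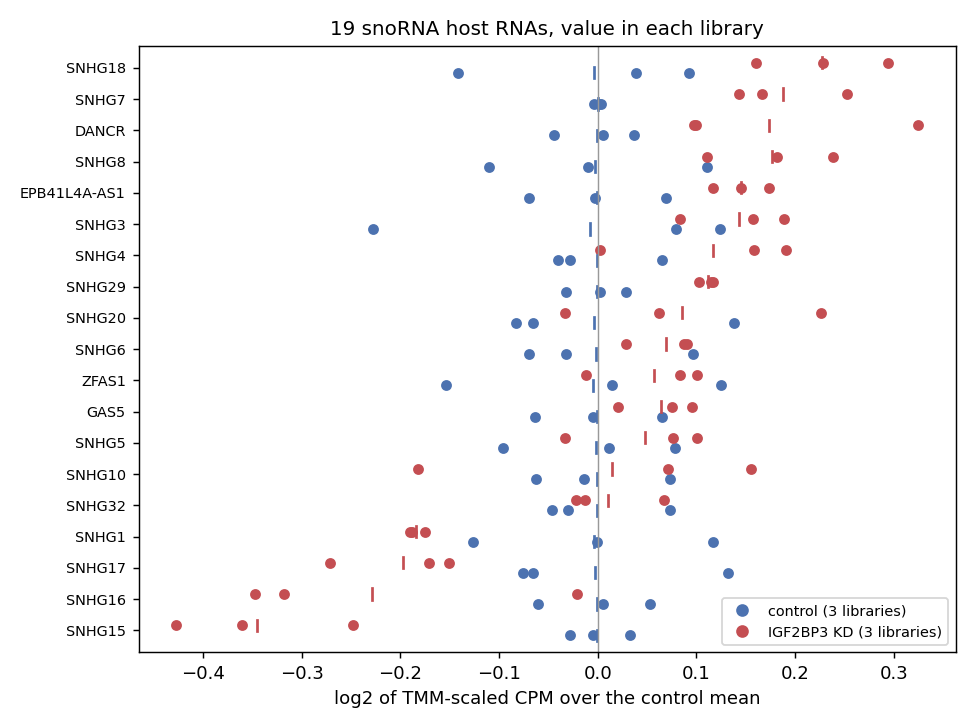
Each row is 1 of the 19 snoRNA host RNAs. The horizontal axis is the log2 of the TMM-scaled CPM of a library over the mean of the 3 control libraries, with control libraries in blue, IGF2BP3 KD libraries in red and a bar at the mean of each group. Most rows overlap between groups, while *SNHG7* and *SNHG29* lie to the right of their controls and *SNHG15* to the left.

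Several hosts share a start that is typical of genes of the translation machinery, a C followed by a run of pyrimidines. Among the 106 members with a RefSeq promoter by symbol, 6 of 17 snoRNA hosts start at the annotated site with a C and at least 3 further pyrimidines, which is 35.3%. Of the other members 4 of 89 do so (4.49%), and of all RefSeq promoters 1489 of 27305 (5.45%). The 6 starts are given from 15 bases before the start site, with the run from the start site in capitals, because this is what these hosts share beside their snoRNAs.
SNHG18, chr5:9546185-9546229, plus: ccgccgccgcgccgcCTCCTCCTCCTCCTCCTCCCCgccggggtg
SNHG4, chr5:139274086-139274130, plus: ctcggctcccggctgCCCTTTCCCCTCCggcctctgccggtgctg
SNHG32, chr6:31834901-31834945, plus: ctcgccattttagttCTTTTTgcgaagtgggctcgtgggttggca
SNHG5, chr6:85678704-85678748, minus: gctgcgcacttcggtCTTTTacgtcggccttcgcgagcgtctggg
SNHG7, chr9:136728155-136728199, minus: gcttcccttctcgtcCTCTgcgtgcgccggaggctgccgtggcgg
ZFAS1, chr20:49278627-49278671, plus: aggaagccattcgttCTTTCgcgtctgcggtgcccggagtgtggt
Of these 6, *SNHG7* was called, and *SNHG4*, *SNHG32*, *SNHG5* and *ZFAS1* had log2FCs of 0.12, 0.01, 0.05 and 0.06.

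The word TGGAC, one form of the sequence in which m6A is usually placed, was counted on the transcript strand. It was present in 190 of 232 members (81.9%) and in 85.9% of all tested transcripts. In transcripts of 1500 to 3500 bases the shares were 88.8% of members and 92.5% of all tested genes. Of the 190 members with the word, 37 were higher and 16 lower with a median log2FC of 0.06. Of the 42 members without it, 8 were higher and 2 lower with a median of 0.10. Among all members 19.3% were higher and 7.73% lower, and among all tested genes 9.87% and 10.6%. The share called higher was near that of all members both with and without the word. A word in a transcript does not show that it is methylated.

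Proteins that bind, make or degrade such RNAs were taken from 4 lists. The median log2FC was -0.11 for paraspeckle proteins, -0.04 for snoRNP proteins, -0.11 for exosome proteins and -0.03 for decay factors, against -0.01 for the coding genes of at least 10 CPM, of which 19.7% were lower and 16.6% higher. The shares called lower were 50% for paraspeckle proteins and, nearer to that of the coding genes, 27.8%, 25% and 23.5% for the other lists, with no test of the differences made. The shares called higher were 11.1%, 5.56%, 4.17% and 0%. Among coding genes the share called lower rose with level, from 9.95% at 10 to 20 CPM to 30.7% at 100 CPM or more. In control cells, all listed paraspeckle proteins but *PSPC1*, *RBM14* and *FAM98A* had means above 100 CPM. Of 18 paraspeckle proteins, the partners of *NEAT1*, 9 were lower and 2 higher. *SFPQ* and *NONO*, both core paraspeckle proteins, had log2FCs of -0.21 (adjusted p = 0.00022) and -0.15 (adjusted p = 0.0014), while *NUDT21*, a subunit of the cleavage factor that directs the choice of poly(A) site, rose by 0.54 on the log2 scale (adjusted p = 1.7e-05) and its partner *CPSF6* fell by 0.22 on that scale (adjusted p = 0.0015). Of 18 tested snoRNP proteins, 5 were lower and 1 higher. *NOP56* fell from 161 ± 4.24 CPM (SD) to 101.5 ± 1.56 CPM (log2FC -0.67, SE 0.03, adjusted p = 4.1e-07), and *NOP58*, its partner in the box C/D particle, rose from 71.1 ± 4.05 CPM to 89.0 ± 4.47 CPM (log2FC 0.32, adjusted p = 0.0013). Of 24 tested proteins of the nuclear exosome and its adaptors, which degrade many unstable nuclear RNAs, 6 were lower and 1 higher, with *EXOSC8* at -0.36 and *EXOSC10* at -0.23 among the falls and *ZFC3H1* at 0.19 as the rise, a call lost without control replicate 2 or IGF2BP3 KD replicate 1. Of 17 factors of nonsense-mediated decay, edgeR called 4 lower and 0 higher, with 5 and 0 at an unadjusted p under 0.05 and 5 and 0 by DESeq2. The 4 were 2 without control replicate 2, control replicate 3 or IGF2BP3 KD replicate 1. *UPF1* fell by 0.19 on the log2 scale (adjusted p = 0.0028).

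The values of some members are uncertain for reasons of the locus. Exons of 173 members overlap those of another gene, 143 on the opposite strand and 82 on the same strand, and the strand setting of the counting is not given in the sources used here. In the 60 members without such overlap, 10 were higher and 8 lower with a median log2FC of 0.08, and in the 173 with overlap 35 were higher and 10 lower with a median of 0.07. With 1 library left out these were 6 to 8 higher and 5 to 7 lower without overlap, and 20 to 27 higher and 8 to 11 lower with it, with the lowest counts of higher members, 6 and 20, without control replicate 3, and 6 also without IGF2BP3 KD replicate 1 or 2. The split of higher against lower calls was closer to even without overlap. Of 232 members compared, 41 had more than 50% of their words of 31 bases in another gene's transcript. *CH507-513H4.3*, *CH507-513H4.4* and *CH507-513H4.6* on chromosome 21 are identical in sequence and had 79.8, 79.5 and 79.6 CPM in IGF2BP3 KD cells, and reads cannot be assigned between them by sequence. Of the 10 members with the largest spread between replicates, 7 had over 50% of their words elsewhere. The extreme was *RP11-29G8.3*, where the control replicates had 393, 2478 and 1263 counts and the IGF2BP3 KD replicates 340, 1205 and 1635 (log2FC -0.28, SE 0.55). The median SD within groups, on the log2 scale, was 0.096 for the members and 0.0654 for the coding genes of at least 10 CPM.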

How the data were processed

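OE-19 cells were sequenced as 3 control and 3 IGF2BP3 KD libraries, with polyadenylated RNA, a directional library kit and paired reads of 150 bases. Per the labels and the study's methods, the authors aligned reads to hg38 with HISAT2 and counted them per gene with featureCounts; fastp is also named in the submitters' processing notes. Versions, annotation release and strand setting are not given in the sources used here. The deposited values are raw counts per gene, without normalization. Of 60612 entries, 132 repeats of 44 identifiers were left out. From these counts, genes were filtered with filterByExpr (minimum count 10, minimum total 15), libraries were scaled with TMM (factors 0.992 to 1.01) and 19778 genes were tested with the quasi-likelihood test of edgeR 4.0.16 in R 4.3.3, without covariates, with Benjamini-Hochberg adjustment. The square root of the common dispersion was 0.148. The fit was tested on simulated data. DESeq2 1.42.0, which the study used, other scalings, filters, levels and thresholds, a replicate block and leaving out each library were alternatives. Trends on GC content and exon length were added as alternatives after seeing the data. Coordinates and exons come from GENCODE v44 on hg38, which lists 232 of the 233 members. Promoters come from RefSeq. Named lncRNAs are the 10 of highest level, the 10 largest called rises and falls, up to 3 of each hand-written role list, those next to the level limit and their neighbours; a few others were chosen after their values were seen. The members and lists were chosen with earlier results of these data known.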

Additional observations from a re-analysis of the deposited data

How the results depend on the processing

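The 18 lower and 45 higher lncRNAs moved as follows. Without a low-count filter 28 were higher and the median log2 fold change was 0.061. With at least 10 counts in every library 28 were lower, as with DESeq2. Of the lncRNAs at 20 CPM or more, 26 were higher and 10 lower. Without members whose exons overlap another gene, 10 were higher and 8 lower, with a median of 0.077. At an adjusted p under 0.01, 21 were higher and 10 lower, and with a log2 fold change of 0.5 or more in size, 8 were higher and 5 lower. The median was 0.062 with the exon length trend removed and 0.077 at a level of at least 5 CPM, against 0.070. By construction, fewer lncRNAs enter at 20 CPM and without overlap, and the last 2 thresholds are stricter. For the others the cause was not tested. Leaving out 1 library gave 13 to 18 lower, 26 to 35 higher and a median of 0.059 to 0.075, with the lowest count of higher lncRNAs without control replicate 3. With a replicate block, 21 were lower and 41 higher with a median of 0.067, although same-numbered libraries did not deviate together (r from -0.03153 to 0.00915), so the numbers do not pair the libraries. None of these values changed direction under the alternatives run, and the fall of *IGF2BP3* kept its call under all alternatives (log2 fold change -3.10 to -3.00). Of 455 refits of 35 named lncRNAs, 16 lost a call and 13 gained one. Precision is limited by counts for members near 10 CPM and by 3 libraries per group.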
